A study of Mus musculus with 48 samples.

Results

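The transcripts described here are those of 9 genes of the GABAergic lineage, namely the homeobox genes *Dlx1*, *Dlx2*, *Dlx5* and *Dlx6*, the long non-coding RNA *Dlx6os1*, and the transcription factors *Lhx6*, *Sox6*, *Satb1* and *Maf*. They were chosen by symbol from the 24421 genes of the count matrix, and all 9 were found. They were measured by RNA-sequencing in 48 libraries of the hippocampal Cornus Ammonis (CA), the hippocampus without the dentate gyrus, each from 1 male mouse of 8 to 10 weeks. In the Glu-CB1 line, Cre recombinase under *Nex1* regulatory elements removes the floxed gene of the cannabinoid receptor CB1 from glutamatergic neurons (Glu-CB1-KO). In the GABA-CB1 line, Cre under *Dlx5/6* regulatory elements removes it from GABAergic neurons (GABA-CB1-KO). Mice were taken in the basal state (home cage), with 5 CB1-WT and 7 KO mice of the Glu-CB1 line and 6 of each genotype of the GABA-CB1 line, or after 5 minutes in an open field arena, with 5 CB1-WT and 7 KO mice of the former and 7 CB1-WT and 5 KO mice of the latter line. Per the study, tissue of the open field mice was isolated an hour after the exposure. CB1-WT mice were littermates of the KO mice, and per the study mice were selected for sequencing by tissue purity, behavior and neuronal activity.

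Dlx proteins are homeodomain transcription factors that specify GABAergic neurons in the ventral forebrain of the embryo, and their genes lie in convergent pairs that share enhancers. *Dlx6os1*, also known as *Evf2*, is transcribed from the *Dlx5/6* locus and acts on that locus in development. *Lhx6* acts downstream in interneurons born in the medial ganglionic eminence, the source of the somatostatin and parvalbumin cells of the hippocampus, where *Sox6*, *Satb1* and *Maf* take part in their migration and maturation. The latter 3 genes are not restricted to interneurons: *Sox6* is also found in oligodendrocyte precursors, *Satb1* in some excitatory neurons and *Maf* in microglia.

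In mm10, *Dlx1* (chromosome 2, 71529445-71533980, plus strand) and *Dlx2* (chromosome 2, 71543408-71546754, minus strand) are 9427 bases apart and face each other. *Dlx6* (chromosome 6, 6863334-6867970, plus strand) and *Dlx5* (chromosome 6, 6877801-6882068, minus strand) form the second pair, 9830 bases apart. *Dlx6os1* (chromosome 6, 6820546-6869533, minus strand) spans *Dlx6* on the opposite strand, with *Dlx6* inside its intron and no exon bases shared. The exons of *Dlx1* share bases with those of the antisense gene *Dlx1as*, and the exons of *Dlx6* with those of *Dlx6os2*, so reads there may be hard to assign to 1 gene of each pair. In the GENCODE annotation, exons of *Maf* (largest overlap 401 bases), *Dlx6os1* (207) and *Satb1* (128) also overlap antisense genes. Those of *Satb1* (156) and *Lhx6* (104) overlap genes on the same strand. The other members are *Lhx6* (chromosome 2, 36081953-36105408), *Sox6* (chromosome 7, 115470872-116038744), *Satb1* (chromosome 17, 51736187-51833290) and *Maf* (chromosome 8, 115703253-115706894), all on the minus strand.

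The 250 bases before the start sites of *Dlx1*, *Dlx2* and *Dlx6os1*, from RefSeq on GRCm38.p6, are shown because these 3 transcripts of the paired loci differ in the base composition of that window. They lie at chr2:71529195-71529444 (plus strand), chr2:71546755-71547004 (minus strand) and chr6:6869534-6869783 (minus strand). They are written 5′ to 3′ on the strand of the gene, and capitals mark TAATTA, a core of homeodomain binding sites that reads the same on both strands.
Dlx1: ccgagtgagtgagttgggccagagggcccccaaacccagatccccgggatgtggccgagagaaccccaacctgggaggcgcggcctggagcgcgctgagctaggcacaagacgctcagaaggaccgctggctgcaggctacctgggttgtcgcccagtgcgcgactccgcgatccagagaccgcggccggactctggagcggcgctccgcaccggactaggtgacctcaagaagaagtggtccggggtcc
Dlx2: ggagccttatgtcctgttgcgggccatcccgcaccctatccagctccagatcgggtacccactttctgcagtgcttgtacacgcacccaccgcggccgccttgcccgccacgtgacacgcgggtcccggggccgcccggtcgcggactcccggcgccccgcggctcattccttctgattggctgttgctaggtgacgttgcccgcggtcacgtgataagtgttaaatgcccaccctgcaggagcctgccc
Dlx6os1: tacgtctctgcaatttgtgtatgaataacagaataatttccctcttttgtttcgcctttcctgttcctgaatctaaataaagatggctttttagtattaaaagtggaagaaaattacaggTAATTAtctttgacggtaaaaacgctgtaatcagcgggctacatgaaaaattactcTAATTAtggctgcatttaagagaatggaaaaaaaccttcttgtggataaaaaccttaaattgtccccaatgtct
G and C made up 68.0% of the window of *Dlx1*, 66.4% of that of *Dlx2* and 33.2% of that of *Dlx6os1*, against a median of 52.4% over 32851 start sites. The *Dlx6os1* window held TAATTA at 2 places, and the *Dlx1* and *Dlx2* windows held none. Among all start sites, 4.84% had the motif in this window. Start sites of 6 members were matched, with 18 windows in all, and those with the motif were the 2 windows of *Dlx6os1*.

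The libraries held 25892654 to 34091080 counted reads (median 30975561). *Cnr1*, which encodes CB1, lay between 330.3 and 412 CPM (the count scaled to library size) in Glu-CB1-WT and between 204 and 249 in Glu-CB1-KO libraries, and between 311 and 394 in GABA-CB1-WT and between 100.3 and 158 in GABA-CB1-KO libraries, so all KO libraries lay below all CB1-WT libraries in both lines. A group of 14 libraries, spread over all 8 groups (9 of the Glu-CB1 and 5 of the GABA-CB1 line), stood apart on the first principal component (17.5% of the variance of 500 genes), with 3.22 to 5.51 CPM of *Xkr4* against 8.74 to 39.3 in the other 34. This split was seen in the data and no label names it, but it goes with the animal numbers in the sample titles. When the numbers of each line were divided at their widest gap, all 14 fell among the 29 libraries of the lower numbers and none among the 19 of the higher. Some results are also given without these libraries. Of the markers of other tissue, the summed level of 4 dentate granule cell genes ran from 66.3 to 214 CPM and that of 5 choroid plexus genes from 39.4 to 4032 CPM. Of the 5 blood genes, the hemoglobin genes *Hba-a1*, *Hba-a2*, *Hbb-bs* and *Hbb-b1* were listed at 0 in all libraries, and *Alas2* ran from 0.781 to 2.33 CPM. Whether these zeros reflect the tissue or the making of the count matrix was not tested.

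All 9 transcripts were detected in every library. Per kilobase of exon (RPKM, the CPM divided by exon length), *Satb1*, which encodes a chromatin organizer, was highest at 14.5 ± 1.18 (SD, n = 48). *Dlx1* followed at 7.09 ± 0.46, *Dlx6os1* at 6.13 ± 1.10 and *Lhx6* at 6.01 ± 0.52. *Maf* had 3.29 ± 0.24, *Dlx6* 2.68 ± 0.40 and *Sox6* 2.65 ± 0.17. The lowest levels per length were those of *Dlx5* at 1.95 ± 0.21 and *Dlx2* at 1.53 ± 0.17. *Satb1* exceeded *Dlx1*, *Lhx6* exceeded *Maf*, and *Sox6* exceeded *Dlx5* in 48 of 48 libraries, and the ranges of these neighbours did not overlap. *Dlx6os1* was above *Lhx6* in 26 of 48 libraries and *Dlx6* above *Sox6* in 26, so these neighbours were not separated beyond their spread.

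The number of reads behind these levels differed between members. The median count was 600 for *Dlx1*, 112 for *Dlx2*, 87 for *Dlx6* and 83 for *Dlx5*. Counting alone gives a coefficient of variation of 10.9% for *Dlx5* and 10.7% for *Dlx6*, against 1.82% for *Satb1*. Over the 48 libraries the observed coefficient was 10.7% for *Dlx5*, 14.9% for *Dlx6* and 8.17% for *Satb1*. The largest was that of *Dlx6os1* at 17.9%, where counting gives 3.55%.

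Group means varied little. The highest of the 8 group means was 1.07 times the lowest for *Sox6*, 1.09 times for *Maf*, 1.10 times for *Dlx1* and *Dlx5*, 1.14 times for *Lhx6* and *Dlx2* and 1.15 times for *Satb1*. The ratio was 1.20 for *Dlx6os1* and 1.23 for *Dlx6*.

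**Figure D1:**
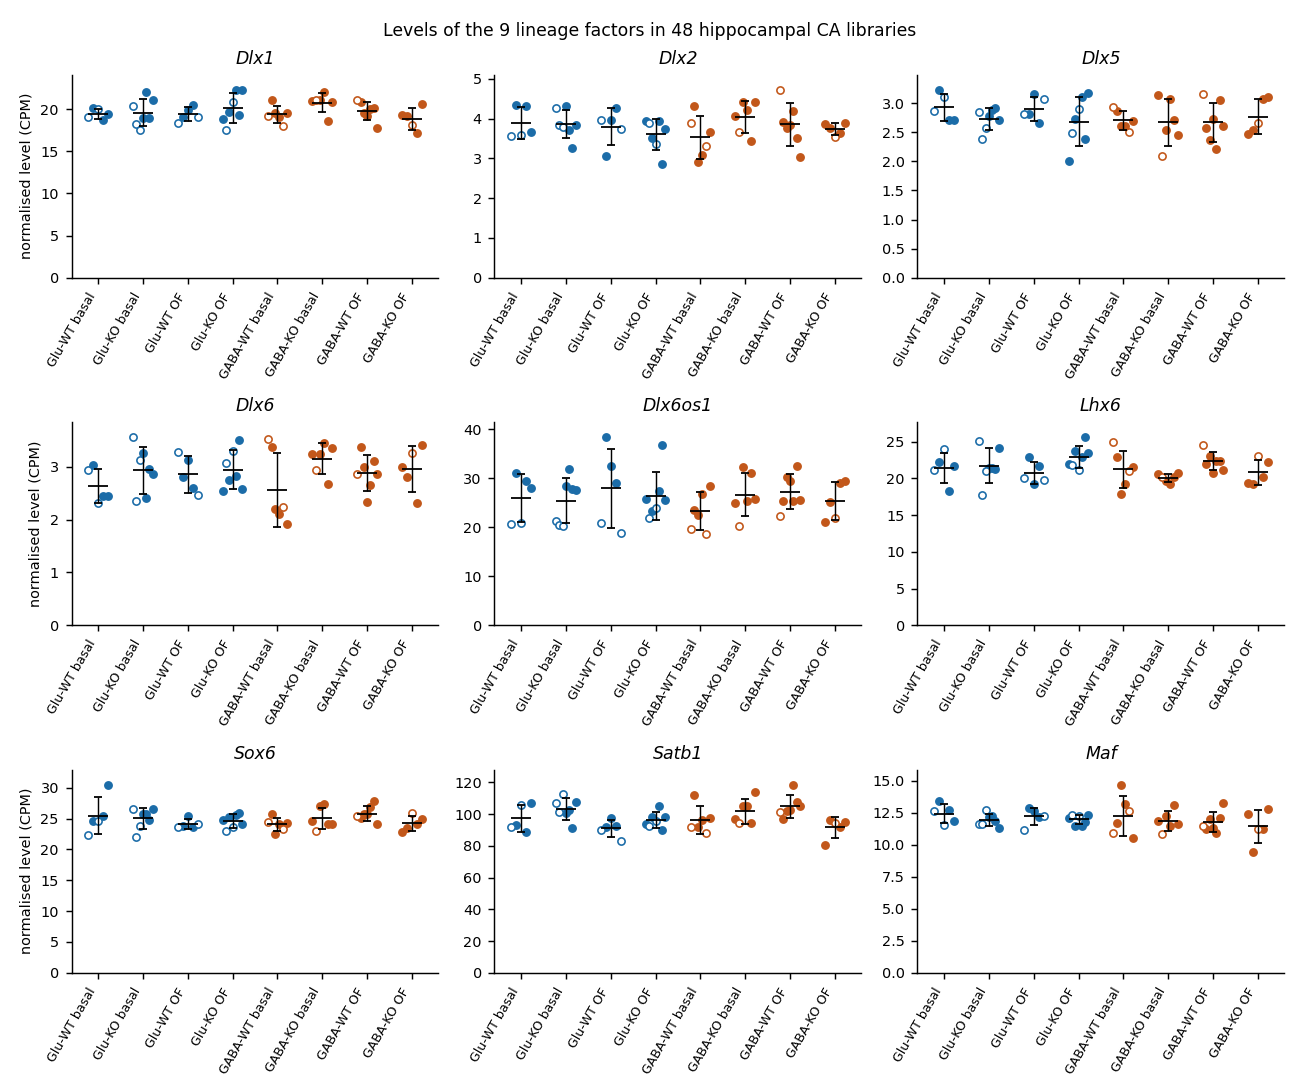
Normalised level (CPM) of each of the 9 genes in the 48 libraries by group (OF, open field), Glu-CB1 line in blue and GABA-CB1 line in orange, with 1 point per mouse and the mean and SD in black. Open points are the 14 libraries of low *Xkr4*, and for *Dlx6os1* these were the lowest of their group except after the open field in the KO mice of both lines.

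The first comparison asks whether deletion of CB1 from either neuron type was accompanied by a change in these transcripts. No member passed the threshold (Benjamini-Hochberg adjusted p under 0.05 over all genes tested, quasi-likelihood test of edgeR) in any of the 4 comparisons of KO with CB1-WT mice. In the Glu-CB1 line 0.0198% of all genes were called in basal and 0.272% in open field mice, and in the GABA-CB1 line 0.245% and 0.0199%. Of the 36 values of the members, 2 had an unadjusted p under 0.05, beside 3.57% and 6.97% of all genes in the Glu-CB1 and 8.16% and 13.2% in the GABA-CB1 comparisons, so the members were not above the background. DESeq2 also called 0 members, and of all genes it called 0.0502% and 0.648% in the Glu-CB1 and 0.532% and 0.736% in the GABA-CB1 comparisons. The log2 fold changes ran from −0.19 to 0.30, and their 95% intervals reached from 0.744-fold to 1.54-fold, so changes beyond that range lay outside every interval. In these bulk samples, fewer cells of a type and less RNA per cell cannot be told apart.

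**Figure D2:**
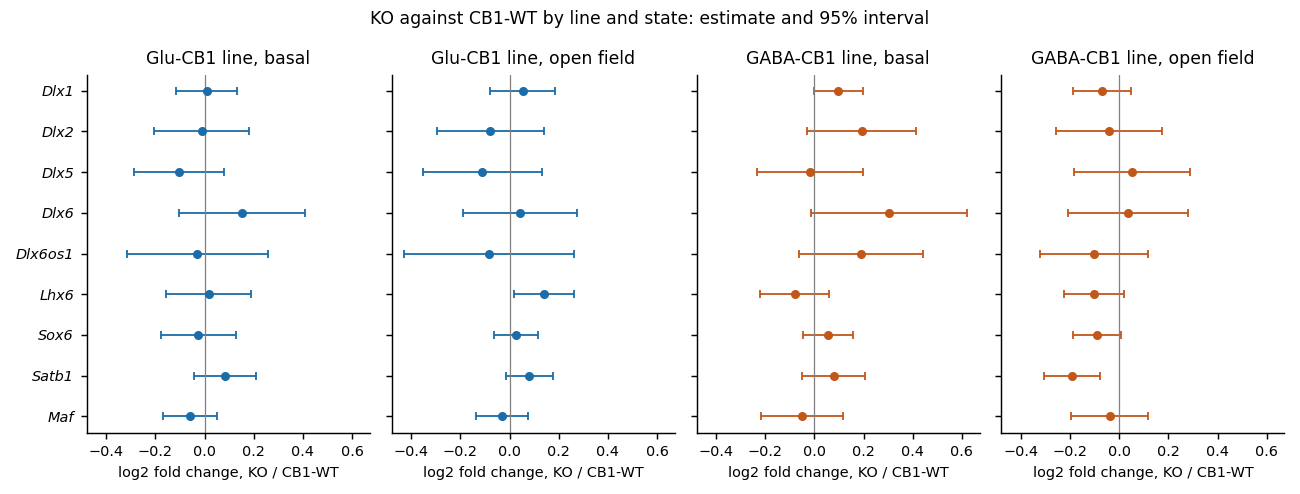
Log2 fold change of KO over CB1-WT with its 95% interval for the 9 genes, in the 4 combinations of line and state. The highest estimate is *Dlx6* in the GABA-CB1 line at the basal state (0.30), and the interval of *Satb1* in the GABA-CB1 line after the open field lies below 0 (−0.31 to −0.08) without passing the adjusted threshold.

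Among the Dlx genes, *Dlx6* had the highest estimate. Its level in the basal state ran from 1.92 to 3.52 CPM in the 6 GABA-CB1-WT libraries (median 2.21) and from 2.67 to 3.45 in the 6 GABA-CB1-KO libraries (median 3.24). The ranges overlapped, with 4 CB1-WT libraries below all KO libraries, 1 within their range and 1 above it. The log2 fold change was 0.30 (standard error 0.15, 95% interval −0.01 to 0.62, adjusted p = 0.628), and 0.41 without the libraries of low *Xkr4* (adjusted p = 0.506). In the same comparison *Dlx1* had 0.10 (interval −0.002 to 0.20), *Dlx2* 0.19 (−0.03 to 0.41), *Dlx5* −0.02 (−0.24 to 0.20) and *Dlx6os1* 0.19 (−0.06 to 0.44). The intervals of *Dlx5* and *Dlx6*, the genes after which the Cre elements of this line are named, overlapped, and the difference between these genes was not tested. After the open field, the GABA-CB1 line had 0.03 for *Dlx6* and 0.05 for *Dlx5*. There *Dlx1* had −0.07, *Dlx2* −0.04 and *Dlx6os1* −0.10. At the basal state of the Glu-CB1 line the values were 0.01 for *Dlx1*, −0.01 for *Dlx2*, −0.10 for *Dlx5*, 0.15 for *Dlx6* and −0.03 for *Dlx6os1*. After the open field they were 0.05, −0.08, −0.11, 0.04 and −0.08 in the same order.

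*Dlx6os1* and *Dlx6* were also compared within each library, since a ratio of 2 counts needs no scaling. The split of the libraries by *Xkr4* still enters this ratio. The median of *Dlx6os1* in the other 34 libraries was 1.34 times that in the 14 of low *Xkr4*, and that of *Dlx6* 0.94 times. The log2 ratio of *Dlx6os1* to *Dlx6* counts (prior count 0.5) was 3.28 ± 0.31 (SD, n = 5) in Glu-CB1-WT and 3.10 ± 0.38 (n = 7) in Glu-CB1-KO mice at the basal state. In the GABA-CB1 line it was 3.20 ± 0.53 (n = 6) and 3.06 ± 0.29 (n = 6). After the open field it was 3.24 ± 0.44 (n = 5) and 3.15 ± 0.23 (n = 7) in the Glu-CB1 line, and 3.23 ± 0.26 (n = 7) and 3.09 ± 0.36 (n = 5) in the GABA-CB1 line. The difference of KO from CB1-WT mice lay between −0.17 and −0.09 in the 4 comparisons, and none passed the threshold (two-sided exact permutation test, lowest p = 0.402, adjusted over the 4 comparisons 0.641 for each).

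The level of *Dlx6os1* went with the split of the libraries. It ran from 18.7 to 23.9 CPM in the 14 libraries of low *Xkr4* (median 20.8) and from 21.1 to 38.4 in the other 34 (median 27.9). Of these 34 libraries, 30 lay above all 14. The medians differed 1.34-fold, whereas those of the other 8 members differed by at most 1.05-fold in the upward and 0.94-fold in the downward direction. Its Pearson correlation with the first principal component over the 48 libraries was −0.81. Those of the other 8 members ran from −0.46 for *Sox6* to 0.05 for *Lhx6*, with −0.33 for *Dlx1* and −0.31 for *Satb1*. None of the 9 members was among the 500 genes of that component. *Dlx6os1* also had the lowest G and C content of the members (38.2% in its longest transcript, median of all genes 49.8%), and its within-group standard deviation on the log2 scale was 0.27, against 0.12 for the median gene. In Glu-CB1-WT mice after the open field the 5 libraries had 18.8, 20.9, 29.1, 32.4 and 38.4 CPM, of which the lowest 2 are libraries of low *Xkr4*. Without such libraries its log2 fold change of KO over CB1-WT after the open field in the Glu-CB1 line went from −0.08 to −0.26 (adjusted p = 0.822). With the principal component as a term, its estimate of GABA-CB1-KO mice at the basal state went from 0.19 to 0.07. What separates the 14 libraries was not tested.

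**Figure D3:**
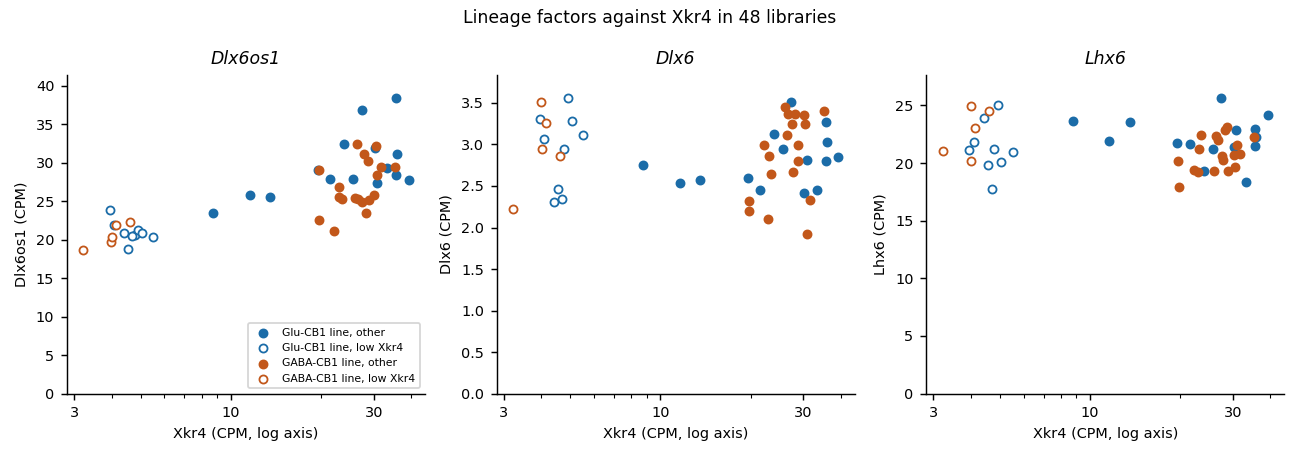
Level (CPM) of *Dlx6os1*, *Dlx6* and *Lhx6* against *Xkr4* (CPM, log axis) in the 48 libraries, Glu-CB1 line in blue and GABA-CB1 line in orange, open points for the 14 libraries of low *Xkr4*. *Dlx6os1* is lower in these libraries (median 20.8 against 27.9 CPM), while the points of *Dlx6* and *Lhx6* overlap between both sets of libraries.

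*Lhx6*, the factor that marks interneurons of the medial ganglionic eminence, had 19.3, 19.9, 20.1, 21.7 and 22.9 CPM in Glu-CB1-WT mice after the open field and from 21.1 to 25.6 (median 22.9) in the 7 Glu-CB1-KO mice. The KO mice were at the upper end, and the groups overlapped. The log2 fold change was 0.14 (standard error 0.06, unadjusted p = 0.0253, adjusted p = 0.595). In the basal state of this line it was 0.02 (adjusted p = 0.999). In the GABA-CB1 line *Lhx6* had −0.08 at baseline and −0.10 after the open field, and over both states −0.09 (interval −0.18 to −0.002, adjusted p = 0.598). The level of *Lhx6* correlated inversely with the summed markers of dentate granule cells (Pearson r = −0.70, Spearman rho = −0.68 over 48 libraries that share these scaled totals, group means removed), and after the open field this sum of 4 genes ran from 80.4 to 142 CPM (median 100.7) in Glu-CB1-WT and from 81.2 to 174 (median 93.4) in Glu-CB1-KO mice. Their part in the *Lhx6* values was not tested.

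*Satb1* was the member with the lowest p. After the open field it ran from 96.7 to 119 CPM (median 102) in the 7 GABA-CB1-WT libraries and had 80.5, 91.9, 94.6, 95.3 and 96.3 CPM in the 5 GABA-CB1-KO libraries. All KO libraries lay below all CB1-WT libraries, the 1 case of the 36 in which groups did not overlap (in this comparison, the groups of 0.987% of all genes did not overlap, beside 0.192% to 0.743% in the other 3, and 0.0199% were called). The log2 fold change was −0.19 (standard error 0.05, unadjusted p = 0.00263, adjusted p = 0.234), and −0.21 without the libraries of low *Xkr4* (adjusted p = 0.184). DESeq2 gave −0.19 with an adjusted p of 0.052. Leaving out 1 library at a time gave −0.21 to −0.15. In the basal state of the same line *Satb1* had 0.08 (interval −0.05 to 0.20). In the Glu-CB1 line it had 0.08 in both states. The summed level of 6 markers of CA3 and CA2 pyramidal cells, with which *Satb1* correlated at r = −0.58 and rho = −0.52 over the 48 libraries, ran from 481 to 586 CPM (median 545) in the GABA-CB1-WT and from 541 to 683 (median 577) in the GABA-CB1-KO mice, and their part in this value was not tested. The library with the highest choroid plexus sum (4032 CPM, group median 66.6) was also 1 of these 5 KO libraries. *Satb1* correlated with that sum at r = −0.28 and rho = −0.35, and its part was not tested either.

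*Sox6* and *Maf* had small values in all 4 comparisons. *Sox6*, which acts with *Lhx6* in interneuron positioning, had log2 fold changes of −0.02 (basal) and 0.03 (open field) in Glu-CB1-KO mice, and 0.06 and −0.09 in GABA-CB1-KO mice. *Maf*, a factor of medial eminence interneurons, had −0.06 and −0.03 in Glu-CB1-KO and −0.05 and −0.04 in GABA-CB1-KO mice. The widest of these 8 intervals was that of *Maf* in the GABA-CB1 line in the basal state, from −0.22 to 0.12.

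The difference of the KO effect between lines was tested directly over the 24 libraries of each state. No member passed in edgeR, with 0.279% of all genes called in basal and 0.568% in open field mice, and 0 and 2 members had an unadjusted p under 0.05, beside 8.56% and 10.8% of all genes. For *Satb1* after the open field, the log2 fold change of the Glu-CB1 mice exceeded that of the GABA-CB1 mice by 0.27 (standard error 0.07, unadjusted p = 0.000851, adjusted p = 0.0858). DESeq2 gave the same difference, 0.27, with an adjusted p of 0.0259 (1.05% of all genes called), so that this call depends on the tool. Without the libraries of low *Xkr4* edgeR gave 0.26 (adjusted p = 0.276). For *Lhx6* the difference was 0.24 (unadjusted p = 0.0061, adjusted p = 0.226). In the basal state the values were 0.01 for *Satb1* and 0.10 for *Lhx6*, and the largest difference was that of *Dlx6os1* at −0.22 (interval −0.62 to 0.18). That of *Dlx6os1* depended on the fit, with 0.02 when the range of animal numbers was a term (edgeR, adjusted p = 0.995). Without the libraries of low *Xkr4*, *Dlx2* had −0.35 (edgeR, adjusted p = 0.509).

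The response to the open field was compared over both genotypes of a line. No member was called by edgeR or DESeq2, against 1.83% of all genes called by edgeR and 2.46% by DESeq2 in the Glu-CB1 and 0.966% and 1.35% in the GABA-CB1 mice, and 1 member in the former and 0 in the latter had an unadjusted p under 0.05, beside 14% and 12.1% of all genes. *Satb1* had a log2 fold change of open field over basal of −0.10 among Glu-CB1 mice (standard error 0.04, adjusted p = 0.165), a value of −0.04 without the libraries of low *Xkr4*, and had 0.0001 in the GABA-CB1 line. The other 8 members ran from −0.07 for *Dlx2* to 0.07 for *Dlx6os1* in the Glu-CB1 line, and from −0.06 for *Maf* to 0.09 for *Dlx6os1* in the GABA-CB1 line.

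Whether the KO effect changed with state was tested as an interaction, and edgeR called 0 genes (0%) in either line. DESeq2 called 0 genes for the Glu-CB1 and 60 (0.294% of all genes) for the GABA-CB1 mice, with no member among them. In the Glu-CB1 line 2.47% of all genes and no member had an unadjusted p under 0.05. In the GABA-CB1 line 3 members had an unadjusted p under 0.05, namely *Satb1* at −0.27, *Dlx1* at −0.17 and *Sox6* at −0.15 (adjusted p = 0.211, 0.296 and 0.313), as had 14.6% of all genes tested. Between the CB1-WT mice of the lines (GABA-CB1 over Glu-CB1), where line cannot be told apart from the library number in the sample titles, no member was called. Here edgeR and DESeq2 called 0 genes (0%) of all tested, 3.89% had an unadjusted p under 0.05, and the members' values ran from −0.12 for *Dlx5* to 0.10 for *Satb1*. Without the libraries of low *Xkr4*, *Dlx6os1* had −0.23 in this comparison (edgeR, adjusted p = 0.367).

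The other genes of the pathway were taken from 3 lists with 37 genes, of which 33 had enough counts to be tested: 9 of 12 for GABA synthesis, transport and Dlx partners, 11 of 12 for interneurons of the medial and 13 of 13 for those of the caudal ganglionic eminence. Over both states, 2 rose and 0 fell in Glu-CB1-KO mice, against 0.257% of all genes called. These were the neuropeptide genes *Npy*, at 0.48 in log2 units (standard error 0.06, adjusted p = 9.34e-05), and *Sst*, with 0.35 (standard error 0.08, adjusted p = 0.0433). In GABA-CB1-KO mice 0 rose and 2 fell, against 0.355% of all genes. These were *Sst*, with −0.31 (standard error 0.05, adjusted p = 0.000843), and the calcium-binding protein gene *Pvalb*, with −0.17 (standard error 0.04, adjusted p = 0.0256). All 3 genes belong to the list of the medial ganglionic eminence, whose 11 tested genes had a median of 0.11 in the Glu-CB1 and −0.07 in the GABA-CB1 line. In the list of the caudal ganglionic eminence 0 of 13 genes were called in either line, with medians of 0.03 and 0.02. The medians include the called genes. The lists were chosen with earlier results of these data known, and the study already names *Sst* and *Npy* as changed in opposite directions. The contrast between the lists is therefore a description and no test of a lineage. Without the libraries of low *Xkr4* the adjusted p was 0.0786 for *Sst* in the Glu-CB1 line and 0.0833 for *Pvalb*, while *Npy* (0.00501) and *Sst* in the GABA-CB1 line (0.008) stayed under the threshold. With the range of animal numbers as a term *Sst* in the Glu-CB1 line had an adjusted p of 0.124, and its call held in 5 of 24 fits that each left out 1 library. With all 48 libraries in one fit *Pvalb* had an adjusted p of 0.151.

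The members were not called in these same 2 comparisons by edgeR or DESeq2 (which called 0.5% and 0.628% of all genes), and 1 in each had an unadjusted p under 0.05, beside 7.34% and 8.27% of all genes. In the Glu-CB1 line they ran from −0.11 for *Dlx5* to 0.10 for *Dlx6*, with *Lhx6* at 0.08 (interval −0.03 to 0.18). In the GABA-CB1 line they ran from −0.09 for *Lhx6* to 0.17 for *Dlx6*. The median of the 9 was 0.0001 in the former and 0.02 in the latter line, beside −0.003 and 0.001 over all genes. As a description, with *Sst* chosen after its values were seen, the log2 ratio of *Sst* to *Lhx6* counts within a library was 2.47 ± 0.20 (SD, n = 7) in Glu-CB1-KO and 2.20 ± 0.21 (n = 5) in Glu-CB1-WT mice at the basal state, and 2.37 ± 0.10 (n = 7) and 2.06 ± 0.23 (n = 5) after the open field. In the GABA-CB1 line it was 2.13 ± 0.09 (n = 6) in KO and 2.33 ± 0.16 (n = 6) in CB1-WT mice at the basal state, and 2.02 ± 0.16 (n = 5) and 2.26 ± 0.10 (n = 7) after the open field. The ratio was thus higher in KO mice in 1 line and lower in the other, with overlapping ranges in all 4 comparisons. Leaving out the libraries of low *Xkr4* gave differences of 0.25 and 0.24 for Glu-CB1 mice and −0.26 and −0.18 for GABA-CB1 mice, in the same order.

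**Figure D4:**
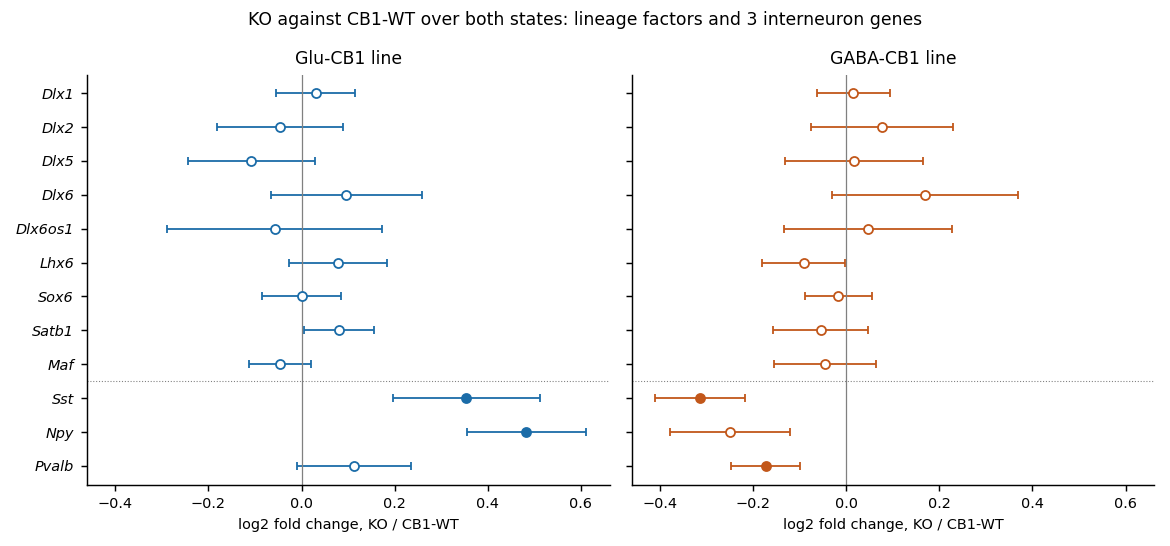
Log2 fold change of KO over CB1-WT over both states with its 95% interval, for the 9 lineage factors and, below the dotted line, *Sst*, *Npy* and *Pvalb*. Filled points passed the adjusted threshold, which were *Npy* and *Sst* in the Glu-CB1 line (left) and *Sst* and *Pvalb* in the GABA-CB1 line (right), and no lineage factor.

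After the open field, the difference of the KO effect between lines was called for 4 genes of the lists, all higher in the Glu-CB1 line, against 0.568% of all genes. These were *Tac1* (0.96), *Sst* (0.78), *Npy* (0.76) and *Gad1*, which encodes a GABA-synthesizing enzyme (0.25). *Sst* was the 1 that stayed under the threshold without the libraries of low *Xkr4* (adjusted p = 0.0203), with 0.0682 for *Gad1*, 0.0846 for *Npy* and 0.0906 for *Tac1*. In the basal state *Npy* alone was called (0.71, adjusted p = 0.00547), against 0.279% of all genes. In the single comparisons of KO with CB1-WT mice the 1 call by edgeR was *Npy* in the Glu-CB1 line after the open field (0.55, adjusted p = 0.0185), against 0.272% of all genes. Its adjusted p was 0.204 without the libraries of low *Xkr4* and 0.0583 with the range of animal numbers as a term. After the open field *Sst* missed the threshold of edgeR in both lines. Glu-CB1-KO mice had 0.44 (adjusted p = 0.0574), while GABA-CB1-KO mice had −0.35 (adjusted p = 0.107). The study, which used DESeq2, lists *Sst* among the genes of opposite change at this state. DESeq2 results of *Sst* for the single comparisons are not reported here.

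Across libraries the correlations between members were weak. With group means removed, the 36 pairs of members had a median Pearson r of 0.18 over the 48 libraries, from −0.33 to 0.45, and 28 were positive. The highest were *Sox6* with *Satb1* (r = 0.45, rho = 0.43), *Dlx6* with *Lhx6* (r = 0.44, rho = 0.31) and *Dlx6os1* with *Sox6* (r = 0.43, rho = 0.48). Of the paired loci, *Dlx1* and *Dlx2* had r = 0.36 and rho = 0.35, *Dlx5* and *Dlx6* r = 0.20 and rho = 0.18, and *Dlx6* and *Dlx6os1* r = −0.08 and rho = −0.09. These values share the scaling of the libraries and, for the scarce transcripts, much counting error.

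The genes most alike to each member over the same libraries differed between members. For *Dlx6os1* they were *Ubxn2b* (r = 0.92, rho = 0.92), *Homer1* (r = 0.91, rho = 0.89) and *Hspa4l* (r = 0.90, rho = 0.88), the highest values of any member. For *Satb1* they were *Ptprt* (r = 0.79, rho = 0.82), *Cbln2* (r = 0.79, rho = 0.75) and *Tshz2* (r = 0.74, rho = 0.70). For *Lhx6* they were *Magel2* (r = 0.79, rho = 0.73), *Cpne2* (r = 0.76, rho = 0.72) and *Nr2f2* (r = 0.75, rho = 0.69). Among those of *Sox6* were *Apba1* (r = 0.68, rho = 0.63) and *Lin7a* (r = 0.67, rho = 0.67). The leading gene was *Ccdc65* for *Dlx1* (r = 0.66, rho = 0.62), followed by *Ccdc96* and *Dnajc8*, and *Sh2d3c* for *Dlx2* (r = 0.61, rho = 0.56), followed by *Map2k5* and *Chst8*. It was *Med18* for *Dlx5* (r = 0.57, rho = 0.59), followed by *Clybl* and *Smn1*, *Supt4a* for *Dlx6* (r = 0.59, rho = 0.59), followed by *Zfp251* and *Sall4*, and *Reep3* for *Maf* (r = 0.58, rho = 0.47), followed by *Smc4* and *Fam120a*. For these 5 members the genes named after the leading one had r between 0.49 and 0.64. All genes named here were picked as the highest of 15569, which by itself raises r, and no test of these values was made. No member was among the 3 genes most alike to another. In the 34 libraries that are not low in *Xkr4*, *Dlx6os1* had r = 0.88 with *Ubxn2b* and *Lhx6* r = 0.67 with *Magel2*.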

How the data were processed

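RNA was amplified and made into libraries with NuGEN's Ovation kits. The authors aligned the single-end reads to mm10 with STAR 2.6.0a and counted them by strand with featureCounts 1.6.2, and they deposited raw counts per gene, without normalization, with the exon length of each gene. Whether the kits keep strand is not given in the sources used here, so reads of a gene and its antisense partner are uncertain. Groups follow the sample labels; the study's text gives the sizes of the open field groups of the GABA-CB1 line the other way round, and *Cnr1* was low in the libraries labelled KO.

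Each comparison was fitted over all genes with edgeR 4.0.16 in R 4.3.3 (quasi-likelihood test, TMM, filterByExpr defaults). A comparison of KO with CB1-WT mice used its 12 libraries, and the others used the 24 libraries of a line or state, or the 23 CB1-WT libraries. Standard errors came from the F statistic. The alternatives were DESeq2 1.42.0, RLE factors, 2 other count filters, all 48 libraries in one fit, a term for animal number range, a block by replicate number, and fits without 1 library each. Added after the data were seen were the first principal component as a term, the fits without the 14 libraries of low *Xkr4* (under 7 CPM), and the ratio of *Sst* to *Lhx6*. The tests were tried on simulated counts. Levels in CPM used TMM factors over 48 libraries, and correlations used log2 CPM (prior count 2).

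Named are all members, called genes of the pathway lists (at most 6 per comparison) and the 3 genes most alike to each member by Pearson r. A few results that this rule would name are not reported here. Members and lists, and the tests, were chosen with earlier results of these data known. All 123 pairs of libraries within a group differed by more than sampling noise (chi-square per degree of freedom at least 2.93). Totals were 25892654 to 34091080 reads per library. Counts carry no molecular identifiers. Python 3.11.15 with scipy 1.17.1 was used for permutation tests.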

Additional observations from a re-analysis of the deposited data

Results flagged for a closer look

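Within groups, 4 single values of members lay far from the others by Dixon's criterion, out of 72 combinations of member and group, and chance flags about 1 in 20. *Dlx6os1* had 36.9 CPM in Glu-CB1-KO open field replicate 6, next to 27.3 in the nearest of the other 6 libraries. *Satb1* had 80.5 CPM in GABA-CB1-KO open field replicate 1, next to 91.9, and *Dlx1* had 18.6 CPM in GABA-CB1-KO basal replicate 5, next to 20.9. *Sox6* had 25.5 CPM in Glu-CB1-WT open field replicate 3, next to 24.1.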

How the results depend on the processing

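The number of members called was 0 in the 13 comparisons and stayed 0 under the 9 alternatives, with 1 exception. DESeq2 called 1 member, *Satb1*, in the difference of the KO effect between lines after the open field (0.27 on the log2 scale, adjusted p = 0.0259), where edgeR's adjusted p ran from 0.0668 to 0.276 over the other alternatives. In 263 fits without 1 library each, 0 members were called in every fit (lowest adjusted p 0.0634). Of 1053 values of members under the alternatives, 1039 moved by less than 1 standard error, 13 moved by more, 1 was the call by DESeq2, and 43 changed sign, none of them past the threshold, and DESeq2 gave no adjusted p for 8. The replicate numbers were not taken as pairs, since 4 of 21 pairs correlated over 0.1 (r from −0.33 to 0.32). With the replicate number as a block, 0 members were called in each comparison, *Satb1* had 0.27 (adjusted p = 0.172) in the difference between lines after the open field, and among the genes named beside the members *Pvalb* (adjusted p = 0.0751) and *Npy* in the Glu-CB1 line after the open field (0.225) passed the threshold no longer. The highest adjusted p without 1 library was 0.105 for *Sst* in the Glu-CB1 line. The call of *Pvalb* held in 17 of 24 such fits (highest adjusted p 0.0586) and that of *Npy* after the open field in the Glu-CB1 line in 9 of 12 (0.0762). The ratio of *Dlx6os1* to *Dlx6* passed in no setting, with differences from −0.29 to 0.04 when 1 library was left out. With group means kept, the 3 genes most alike to *Lhx6* and to *Dlx6* were all replaced, and *Dlx1*, *Sox6*, *Satb1* and *Maf* each kept 1 of 3. For *Dlx2*, *Dlx5* and *Dlx6*, with 56 to 159 counts per library, depth limits what could be detected.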
